A study of Homo sapiens with 12 samples.

Results

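The genes described here were 38 genes of glycolysis and of the cell's response to low oxygen, chosen by gene symbol. All 38 were among the 42157 genes of the count table, 24018 of which had at least 1 read. Of the 38, 35 had enough reads to be tested, among 13696 tested genes. The 38 comprise 9 enzymes of upper glycolysis, 8 enzymes of lower glycolysis and lactate dehydrogenases, 4 transporters of glucose and lactate, 5 regulators of glycolytic flux, 5 oxygen-sensing genes and 7 genes that hypoxia is known to induce. RNA was measured in HL-60 cells, an established human line of acute myeloid leukemia (AML), after 3 h with ML-792 at 0.5 µM together with daunorubicin (DNR) at 1 µM (ML-792+DNR), with 1 µM DNR alone, with 0.5 µM ML-792 alone, or with the vehicle dimethyl sulfoxide (DMSO). DNR is an anthracycline that slots between DNA bases and holds topoisomerase II on the cut strand, and ML-792 inhibits the enzyme that activates the small modifier protein SUMO. Polyadenylated RNA of 3 replicates per group was sequenced, which per the study's methods came from independent experiments on this 1 line. The design asks whether DNR changes the transcripts of the cells within hours, and whether blocking SUMO attachment alters that change.

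Glycolysis breaks glucose down to pyruvate in the cytosol, and lactate dehydrogenase turns pyruvate to lactate when it is not burned in mitochondria. Hypoxia-inducible factor 1 (HIF-1), whose regulated subunit is encoded by HIF1A, is hydroxylated by the EGLN enzymes in the presence of oxygen and then handed to degradation by VHL. When oxygen is short the factor accumulates, binds hypoxia response elements with the core letters ACGTG or GCGTG, and raises glucose transporters, most glycolytic enzymes and genes such as VEGFA, ADM and NDRG1. Leukemic cells in culture use glycolysis heavily even where oxygen is plentiful.

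Levels are given as CPM, a gene's reads scaled to a common library size. Libraries held 28647951 to 46451654 reads in genes, and the members took 1.81% to 2.27% of them. The libraries of replicate 1 had 4.01% to 6.37% of their reads in mitochondrially encoded genes, and those of replicates 2 and 3 had 2.49% to 3.48%. The 8 granulocyte precursor markers listed for the cell line (MPO and MYB among them) were all detected, and their summed level was 11430 to 12410 CPM in ML-792+DNR, 10770 to 11280 CPM in DNR, 11290 to 14060 CPM in ML-792 and 11720 to 12980 CPM in DMSO. The sum, most of which was MPO (10320 CPM on average in DNR and 11260 CPM in DMSO), was thus lower in every DNR library than in every DMSO library. ELANE was the lowest marker, at 1.68 CPM on average in ML-792+DNR, 0.762 CPM in DNR, 1.81 CPM in ML-792 and 0.675 CPM in DMSO. In DNR vs DMSO 4 of the 8 had a positive and 4 a negative fold change, and 3 fell past the test described below, CD33, CEBPE and MYB (−1.20 on the log2 scale for MYB). Their part in the results below was not tested. Lymphocyte markers summed to at most 0.985 CPM in any library (2 of 6, CD3E and MS4A1, at 0 throughout), erythroid markers to at most 0.0864 CPM (3 of 5, HBA1, HBA2 and HBB, at 0 throughout), and stromal and epithelial markers to at most 3.07 CPM (3 of 6, EPCAM, KRT19 and COL1A2, at 0 throughout). In such bulk RNA, fewer cells that make a transcript and less of it per cell cannot be told apart.

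Promoter letters are shown for the members that rose at least 2-fold in a comparison, ADM (adrenomedullin), ANKRD37 (an ankyrin repeat protein) and PFKM (muscle-type phosphofructokinase), and for LDHA (lactate dehydrogenase A), which with BNIP3 held the most matches to the core. Each runs 5′ to 3′ on the strand of the gene, from 250 bases before its start to 50 after (RefSeq, GRCh38.p14), and capitals mark every ACGTG or GCGTG on either strand. The ADM window is chr11:10304823-10305122, that of ANKRD37 chr4:185396591-185396890, that of PFKM chr12:48105623-48105922 and that of LDHA chr11:18394313-18394612, all on the plus strand.
ADM: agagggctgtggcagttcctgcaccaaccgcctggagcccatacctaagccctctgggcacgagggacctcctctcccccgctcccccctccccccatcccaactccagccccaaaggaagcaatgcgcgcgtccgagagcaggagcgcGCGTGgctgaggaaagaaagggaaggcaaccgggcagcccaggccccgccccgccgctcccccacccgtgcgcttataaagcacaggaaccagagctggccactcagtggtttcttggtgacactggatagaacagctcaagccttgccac
ANKRD37: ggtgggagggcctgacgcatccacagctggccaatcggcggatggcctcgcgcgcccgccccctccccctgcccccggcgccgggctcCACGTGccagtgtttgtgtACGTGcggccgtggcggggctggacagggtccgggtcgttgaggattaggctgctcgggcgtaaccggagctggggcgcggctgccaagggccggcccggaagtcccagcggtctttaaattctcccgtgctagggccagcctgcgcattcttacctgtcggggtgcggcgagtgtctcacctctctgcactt
PFKM: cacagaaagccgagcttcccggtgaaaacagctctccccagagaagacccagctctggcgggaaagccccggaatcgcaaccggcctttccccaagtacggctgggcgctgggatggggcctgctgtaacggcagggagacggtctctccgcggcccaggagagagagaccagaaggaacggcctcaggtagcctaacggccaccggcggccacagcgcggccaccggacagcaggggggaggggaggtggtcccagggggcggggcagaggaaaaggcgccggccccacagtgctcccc
LDHA: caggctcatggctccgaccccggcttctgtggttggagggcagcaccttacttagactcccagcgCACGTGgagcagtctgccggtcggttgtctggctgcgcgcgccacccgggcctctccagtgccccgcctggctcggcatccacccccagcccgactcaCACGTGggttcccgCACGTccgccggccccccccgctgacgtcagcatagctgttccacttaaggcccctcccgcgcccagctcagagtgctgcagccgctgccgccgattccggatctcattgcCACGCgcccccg
The ADM window held 1 match, which begins 101 bases before the start of the gene, that of ANKRD37 held 3, that of PFKM held 0 and that of LDHA held 6. The run CACGTG, which also is the recognition sequence of MYC and its relatives, counts as a match on each strand and occurs in the windows of ANKRD37 and LDHA. Promoters of 31 of the 38 members were in the table, and 23 of these (74.2%) held a match, against 48.4% of 35116 promoters of the same length. The sets were matched in length only and not in base composition, whose part in the difference was not tested. Taken singly, ACGTG was in 14 member promoters and in 21.4% of all promoters, and GCGTG in 15 member promoters and in 36.5% of all. A match describes these letters only and is not a site shown to be bound.

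In DMSO the levels of the members per length spanned more than 4 orders of magnitude, as the plot of levels per kilobase shows. Scaled by the length of the canonical transcript, GAPDH (glyceraldehyde-3-phosphate dehydrogenase) stood highest at 4148 ± 287 CPM per kb (SD, n = 3, as for every mean below), followed by ENO1 (enolase 1) at 2196 ± 137 CPM per kb, LDHB (lactate dehydrogenase B) at 1194 ± 52.4 CPM per kb and LDHA at 793 ± 35.6 CPM per kb. These neighbours differed by more than their spread. Of the canonical exon bases of LDHB, 76.5% overlap another locus on the same strand, so that its level and rank are uncertain. ALDOA (aldolase A, 628 ± 1.96 CPM per kb) and PKM (pyruvate kinase M, 616 ± 25.6 CPM per kb) did not differ beyond their spread, nor did the lactate exporter SLC16A3 (40.7 ± 8.53 CPM per kb) and PGAM1 (phosphoglycerate mutase 1, 40.0 ± 7.01 CPM per kb). At the low end of the tested members were PFKM at 0.691 ± 0.252 CPM per kb and ADM at 0.112 ± 0.0302 CPM per kb. PDK1 (pyruvate dehydrogenase kinase 1) is set low on this scale by a canonical transcript of 14072 bases. Of the untested members, PFKFB2 had 12 reads over the 12 libraries, and EGLN2 and EGLN3, which encode oxygen-sensing prolyl hydroxylases, had 0 reads in each library, which allows at most 0.103 CPM in the shallowest. Of the canonical exon bases of EGLN2, 95.8% overlap same-strand loci, among them the readthrough gene RAB4B-EGLN2, which itself had 17 reads in all, so that the 0 of EGLN2 cannot be read as absence of its transcript. GAPDH, BNIP3 and PGAM1 have 65, 44 and 13 named pseudogenes in the annotation, and their counts are uncertain to the extent that reads are shared with such copies.

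**Figure D1:**
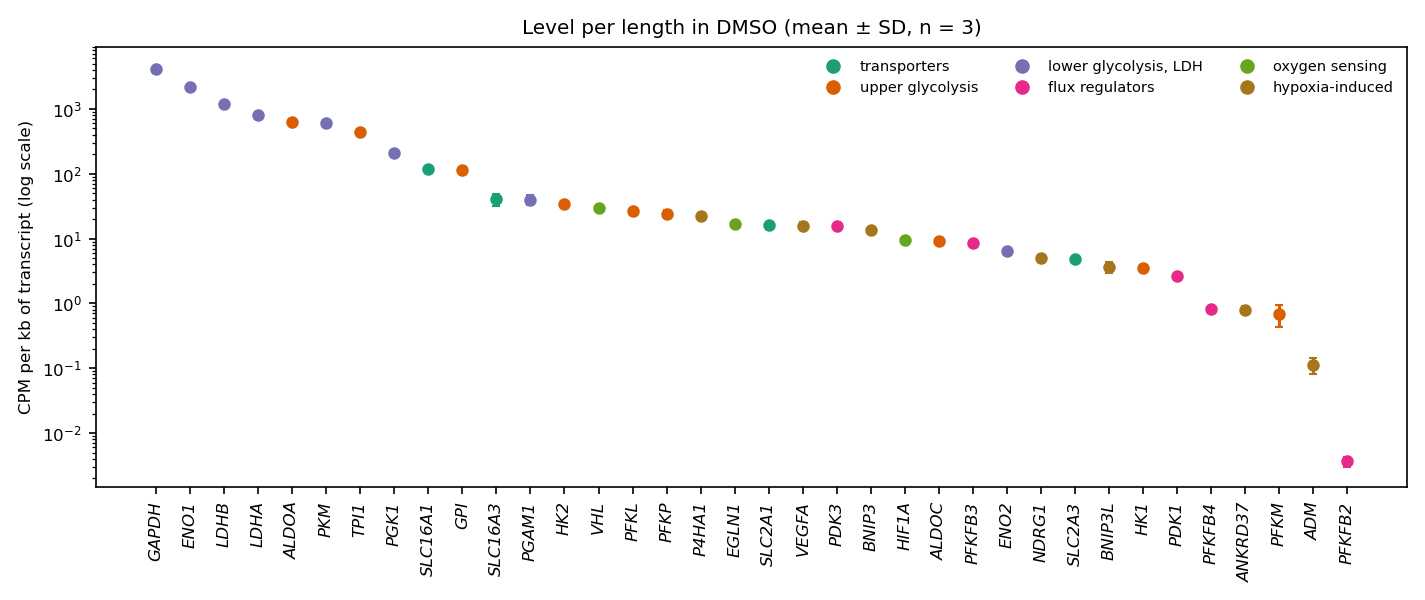
Mean level of each member with a read in DMSO, in CPM per kilobase of canonical transcript (log scale, error bars SD over 3 libraries), ordered by level and coloured by role. GAPDH leads at 4148 CPM per kb and ADM, the lowest tested member, stands at 0.112 CPM per kb.

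DNR alone changed 12 of the 35 tested members, raising 8 and lowering 4, and only ADM, PFKM and SLC2A3 (the glucose transporter GLUT3) moved by 2-fold or more. Here a gene is past the test at a Benjamini-Hochberg adjusted p under 0.05 in edgeR's quasi-likelihood fit over all 13696 genes, and called if it also moved at least 2-fold. Of all tested genes 30.0% were past the test, 14.3% upward and 15.7% downward, so that the members' share of 34.3% lay near the background and is not a result about them as a set. Called genes made up 4.07% upward and 2.91% downward, against 2 and 1 of the 35 members. The median log2 fold change was 0.10 over the members and 0.01 over all genes. Every DNR library lay above every DMSO library for 12 members and below for 6, against 23.0% and 23.6% of all genes upward and downward. Without DNR replicate 1 or without DMSO replicate 2, 7 of the 12 were no longer past the test (ALDOA, ALDOC, TPI1, PKM, PFKM, PFKP and VEGFA), which left 5 members past it without DNR replicate 1 and 6, with NDRG1 gained, without DMSO replicate 2. Leaving out DMSO replicate 1 or 3 or DNR replicate 2 or 3 removed 3 to 4 of the 12, among them ALDOA and ALDOC each time. With replicates 2 and 3 alone, 5 members were past the test. With the replicate number as a block in the fit, 14 members were past it, including all 12, where 42.1% of all genes were.

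ML-792 alone changed none of the 35 members under edgeR's quasi-likelihood test, where 0.241% of all genes were past it (0.183% upward and 0.0584% downward) and 0.0730% and 0.00730% were called. Every ML-792 library lay above every DMSO library for 4 members and below for 3, against 4.51% and 5.98% of all genes. Of the 35, 2 had an unadjusted p below 0.05, NDRG1 (higher) and SLC2A3 (lower), beside 697 of the 13696 genes. The same 2 were past the test under DESeq2 and with the replicate number as a block, a fit in which 1.12% of all genes were past it.

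ML-792+DNR, set against DMSO, changed 14 of the 35 members, 10 upward and 4 downward. This is 40% of the members, against 35.4% of all genes (17.0% upward and 18.4% downward), again a share near the background. ADM and ANKRD37 rose and SLC2A3 fell by 2-fold or more, where 3.93% and 2.56% of all genes were called upward and downward. The median log2 fold change was 0.18 over the members and 0.01 over all genes. Libraries of 16 members lay wholly above DMSO and of 5 wholly below, against 24.2% and 24.5% of all genes. The count fell to 9 without DMSO replicate 1, DMSO replicate 3 or ML-792+DNR replicate 1 and to 6 with replicates 2 and 3 alone. With the replicate block it was 21, of which 7 were gained (GAPDH, LDHA, PGK1, PFKM, VEGFA and P4HA1 upward, PFKFB3 downward), where 49.0% of all genes were past the test. This comparison shares its DMSO libraries with DNR vs DMSO, so that the pair are not independent of each other.

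Between ML-792+DNR and DNR no member was past edgeR's quasi-likelihood test, where 0.745% of all genes were (0.256% upward and 0.489% downward). Called genes were 0.0949% and 0.102% of all. The ML-792+DNR libraries lay wholly above those of DNR for 7 members and below for 2, against 8.89% and 9.86% of all genes. At an unadjusted p below 0.05 there were 6 of the 35 members, beside 1768 of the 13696 genes. Of the 6, 4 were higher with ML-792 (ANKRD37, NDRG1, SLC2A1 and BNIP3) and 2 lower (HIF1A and P4HA1). ANKRD37 and NDRG1 were past the test with the replicate block, where 3.94% of all genes were, and ANKRD37, NDRG1 and HIF1A under DESeq2. Of the 35 log2 fold changes 28 were positive, against 6884 of the 13696 genes, with a median of 0.08 over the members and 0.00 over all genes. The direction of the members as a set was not tested. Set against ML-792, ML-792+DNR changed 13 members, 9 upward and 4 downward, which is 37.1% where 33.8% of all genes were past the test (16.3% and 17.4%). ADM, ANKRD37 and PFKM were called upward and no member downward, against 3.68% and 2.66% of all genes. Without ML-792+DNR replicate 1 the 13 dropped to 6, with replicates 2 and 3 alone to 2, and with the replicate block there were 21 (46.7% of all genes), with GAPDH, GPI, PGAM1, SLC16A1 and P4HA1 gained upward and PFKFB3, PFKP and VHL downward. Libraries did not overlap for 9 members upward and 5 downward, against 21.3% and 21.5% of all genes. The change with DNR did not differ detectably between cells with and without ML-792 in an interaction term, for which 0 of the 35 members and 0 of the 13696 genes were past edgeR's test. DESeq2 found 0 members as well, 1 member (SLC2A1) had an unadjusted p below 0.05, and 493 of all genes did.

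**Figure D2:**
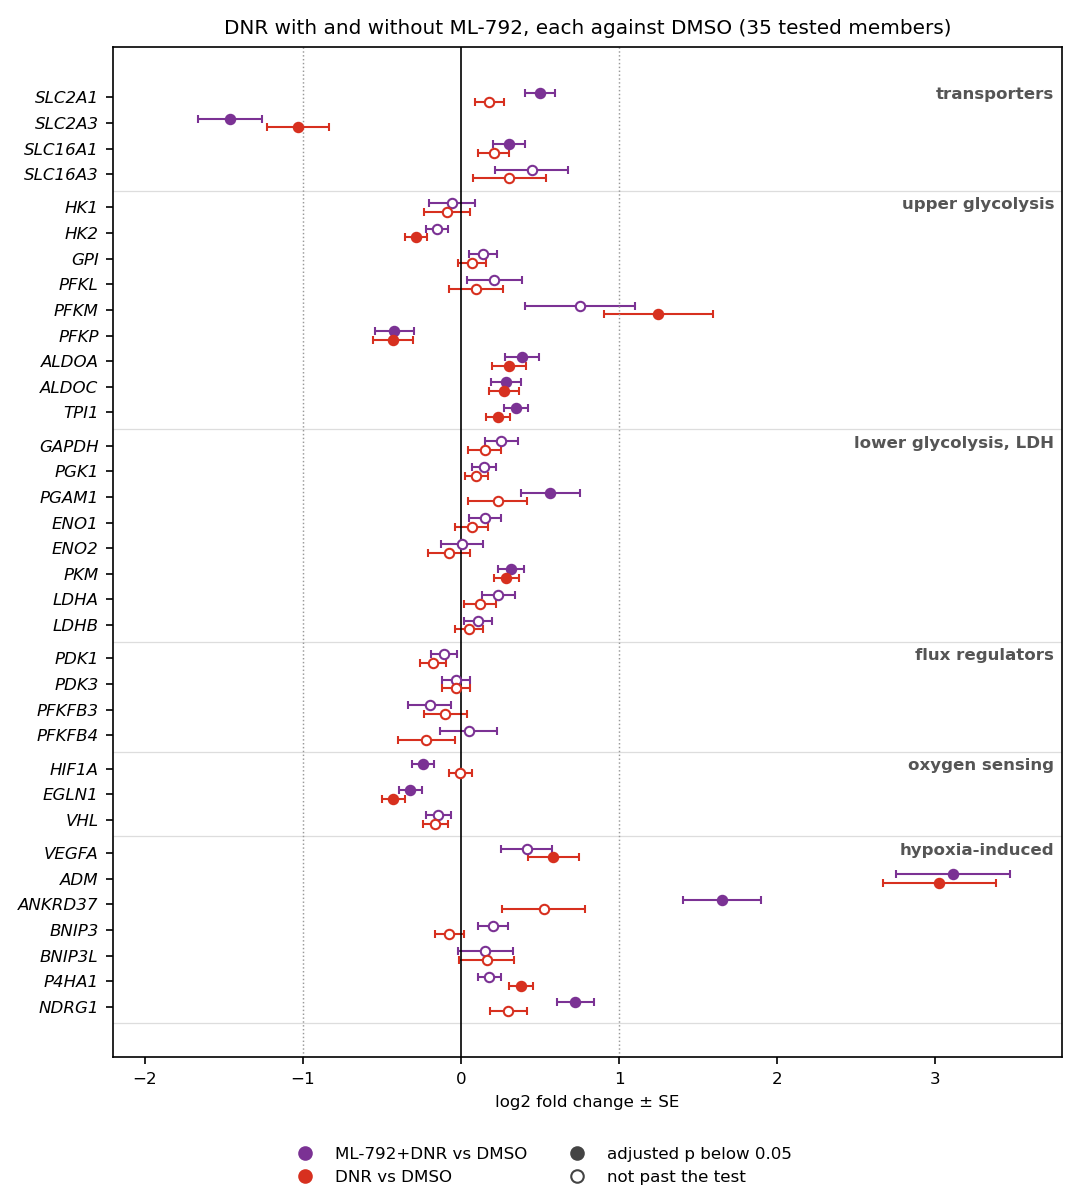
Log2 fold change against DMSO (horizontal axis, ± SE) of the 35 tested members, by role, in ML-792+DNR (purple) and in DNR (red), with filled points past the test and dotted lines at 2-fold. ADM stands apart at 3.11 in ML-792+DNR and 3.02 in DNR, SLC2A3 is the only member beyond the lower line, and most enzymes lie within 0.5 of 0.

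Among the transporters, SLC2A3 fell in DNR-treated cells while the other glucose carrier, SLC2A1 (GLUT1), was higher in ML-792+DNR. SLC2A3 (chr12:8071826-8171603, minus strand, GRCh37) had 5.33, 9.01 and 5.82 CPM in the ML-792+DNR replicates, 7.87, 11.1 and 8.29 CPM in DNR, 10.4, 12.3 and 8.94 CPM in ML-792, and 18.8, 20.0 and 17.1 CPM in DMSO. All 9 libraries with a drug lay below all 3 of DMSO, and the drug groups overlapped each other. The log2 fold change was −1.46 ± 0.20 in ML-792+DNR vs DMSO (SE, adjusted p = 0.000151) and −1.03 ± 0.20 in DNR vs DMSO (adjusted p = 0.00158). The DNR value came under the 2-fold line without DMSO replicate 2 (−0.99), DNR replicate 1 (−0.94) or DNR replicate 3 (−0.97), with the test still passed. In ML-792 vs DMSO it was −0.82 ± 0.20 and missed the threshold (adjusted p = 0.157), which it passed with the replicate block (−0.83, adjusted p = 0.00535) and without ML-792+DNR replicate 2 (adjusted p = 0.0471). SLC2A3 fell as well in ML-792+DNR vs ML-792 (−0.64 ± 0.20, adjusted p = 0.0251), though not past the test without ML-792 replicate 1 or 2 or ML-792+DNR replicate 1 or 3 (adjusted p up to 0.107). The near copy SLC2A14, with which SLC2A3 could share reads, had 10 reads over the 12 libraries.

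SLC2A1 had 74.4 to 77.5 CPM in ML-792+DNR, 52.1 to 66.7 CPM in DNR, 50.5 to 57.4 CPM in ML-792 and 52.2 to 55.3 CPM in DMSO. It rose in ML-792+DNR over DMSO (0.50 ± 0.09, adjusted p = 0.00124) and over ML-792 (0.47 ± 0.09, adjusted p = 0.00214), both under every alternative fitted, while DNR vs DMSO gave 0.18 ± 0.09 (adjusted p = 0.168). All 3 libraries of ML-792+DNR lay above all 3 of DNR, yet that difference of 0.32 ± 0.09 did not pass (adjusted p = 0.15). Per length, the ratio of SLC2A1 to SLC2A3 was 13.6 ± 3.71 in ML-792+DNR, 7.73 ± 1.63 in DNR, 6.01 ± 1.09 in ML-792 and 3.28 ± 0.169 in DMSO, and the DMSO ratios, 3.12 to 3.46, lay below those of all other libraries. SLC16A1, which carries lactate across the membrane, had 535, 626 and 503 CPM in ML-792+DNR, 510, 568 and 479 CPM in DNR, 515, 527 and 458 CPM in ML-792, and 456, 480 and 414 CPM in DMSO. Replicate 2 was the highest and replicate 3 the lowest in each group, and SLC16A1 rose in ML-792+DNR over DMSO (0.30 ± 0.10, adjusted p = 0.0299) but not past the test in DNR (0.21 ± 0.10, adjusted p = 0.135). The rise in ML-792+DNR was not past the test without DMSO replicate 1 or 3 or ML-792+DNR replicate 1 or 2 (adjusted p up to 0.135). SLC16A3 averaged 144 CPM in ML-792+DNR, 131 CPM in DNR, 114 CPM in ML-792 and 106 CPM in DMSO and passed the test in no comparison, although 3 alternatives brought it past the test in ML-792+DNR vs DMSO and 1 in ML-792+DNR vs ML-792.

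**Figure D3:**
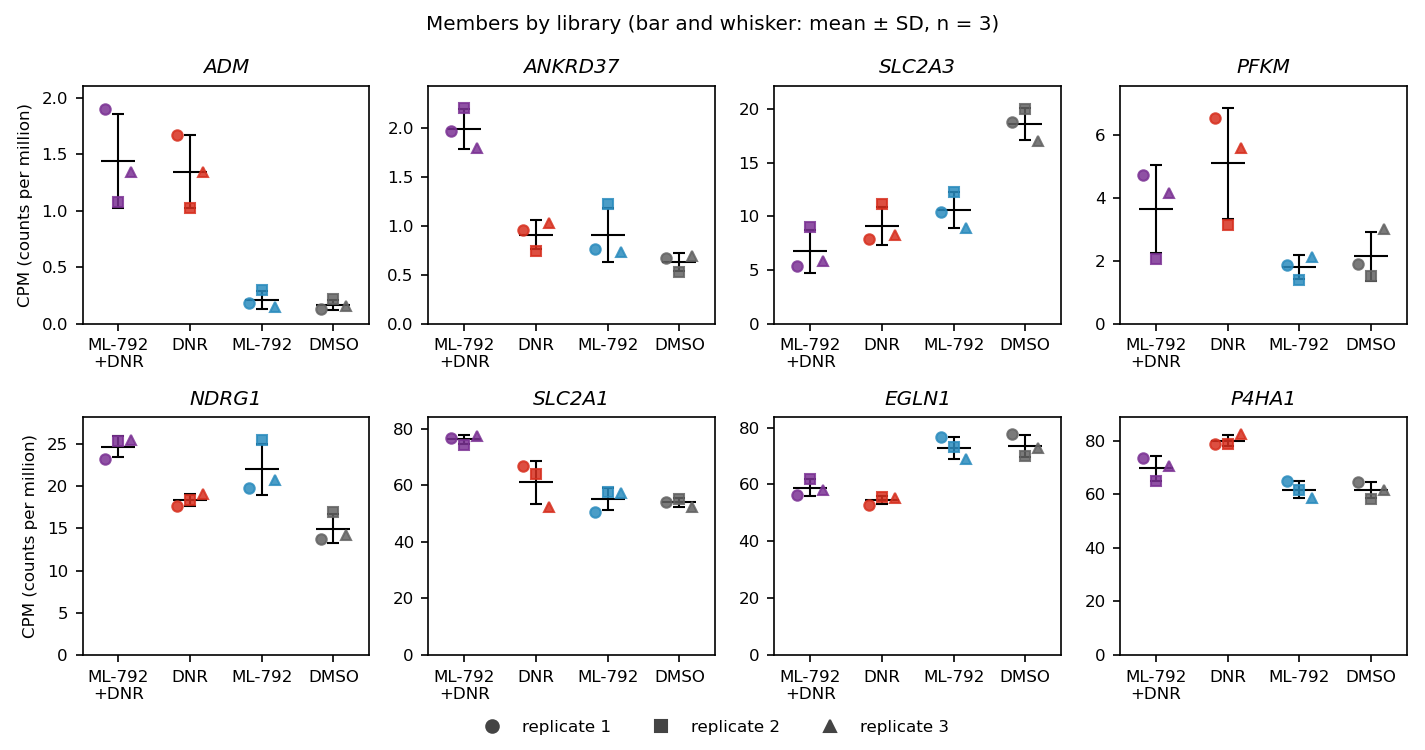
CPM per library (vertical axes, each from 0) of 8 members in ML-792+DNR, DNR, ML-792 and DMSO, with marker shapes for the replicate number and the mean ± SD of 3 libraries. ADM separates the groups with DNR from those without, ANKRD37 is highest in ML-792+DNR, and SLC2A3 is highest in DMSO.

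In upper glycolysis, where glucose is phosphorylated and split, DNR raised PFKM, ALDOA, ALDOC and TPI1 and lowered HK2 and PFKP, which makes 6 of the 9 members, where 30.0% of all genes were past the test. Only HK2 of these 6 was past it without DNR replicate 1 or without DMSO replicate 2. The phosphofructokinases, which commit sugar to glycolysis, moved apart. PFKM (chr12:48498922-48540187, plus strand) had 4.71, 2.06 and 4.13 CPM in ML-792+DNR, 6.54, 3.13 and 5.58 CPM in DNR, 1.87, 1.37 and 2.12 CPM in ML-792, and 1.88, 1.52 and 3.01 CPM in DMSO. Replicate 2 was the lowest in every group. PFKM rose in DNR over DMSO (1.25 ± 0.35, adjusted p = 0.0155), without overlap, and in ML-792+DNR over ML-792 (1.01 ± 0.36, adjusted p = 0.0425), where the groups overlapped. Its rise in DNR was no longer past the test without DMSO replicate 1, DMSO replicate 2 or DNR replicate 1 (1.02 to 1.14, adjusted p of 0.0636 to 0.0791), and its rise over ML-792 was lost in 10 of 21 alternatives, 7 of which left out a single library. In ML-792+DNR vs DMSO the change of 0.75 ± 0.35 had an adjusted p of 0.11, and of 0.00764 with the replicate block.

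PFKP, the platelet-type enzyme, had 46.3 to 48.7 CPM in ML-792+DNR, 41.8 to 52.6 CPM in DNR, 50.1 to 67.4 CPM in ML-792 and 54.8 to 72.4 CPM in DMSO. It fell in DNR (−0.43 ± 0.13, adjusted p = 0.0188) and in ML-792+DNR (−0.42 ± 0.13, adjusted p = 0.0182), each against DMSO. Both falls were no longer past the test without DMSO replicate 2 and without replicate 1 or 3 of the treated group. The difference of ML-792+DNR from ML-792 had an adjusted p of 0.0526, and of 0.0177 with the replicate block (−0.33). PFKL, the liver-type enzyme, did not pass the test in any comparison, except in ML-792+DNR vs ML-792 with no count filter or without ML-792 replicate 3. Per length, PFKP exceeded PFKM 17.6-fold in ML-792+DNR, 12.3-fold in DNR, 40.6-fold in ML-792 and 38.4-fold in DMSO (SD 8.89, 6.46, 10.9 and 16.2). The hexokinase HK2, which traps glucose in the cell, had 166, 180 and 183 CPM in ML-792+DNR, 151, 168 and 162 CPM in DNR, 215, 204 and 195 CPM in ML-792, and 205, 195 and 187 CPM in DMSO. All libraries with DNR lay below all libraries without it, and HK2 fell in DNR vs DMSO (−0.29 ± 0.07, adjusted p = 0.0087) and in ML-792+DNR vs ML-792 (−0.22 ± 0.07, adjusted p = 0.0297, lost without ML-792 replicate 1 or 2 or ML-792+DNR replicate 1), while ML-792+DNR vs DMSO gave −0.15 ± 0.07 (adjusted p = 0.113).

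The aldolases and triosephosphate isomerase, which split the sugar and interconvert the products, rose by 18% to 23% in DNR vs DMSO. ALDOA averaged 1344 ± 173 CPM in ML-792+DNR, 1271 ± 143 CPM in DNR, 997 ± 104 CPM in ML-792 and 1030 ± 3.22 CPM in DMSO. In ALDOC the means were 17.9, 17.8, 13.6 and 14.7 CPM, and in TPI1 750, 693, 594 and 589 CPM, over ML-792+DNR, DNR, ML-792 and DMSO. In DNR vs DMSO the log2 fold changes were 0.30 for ALDOA (adjusted p = 0.0489), 0.27 for ALDOC (adjusted p = 0.0444) and 0.23 for TPI1 (adjusted p = 0.0319), and in ML-792+DNR vs ML-792 they were 0.43, 0.39 and 0.34, all past the test. The rise in DNR vs DMSO was lost in 10 of 21 alternatives for ALDOA, 14 for ALDOC and 7 for TPI1. Of the canonical exon bases of ALDOA, 89.8% overlap another locus on the same strand, so that its count is uncertain. HK1 did not pass the test in any comparison, and GPI (glucose-6-phosphate isomerase) passed only with the replicate block in ML-792+DNR vs ML-792 (0.17, adjusted p = 0.0266).

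In lower glycolysis, which yields ATP and pyruvate, PKM was the only 1 of 8 members that DNR alone raised past the test. PKM had 1884, 1744 and 1672 CPM in ML-792+DNR, 1785, 1759 and 1648 CPM in DNR, 1451, 1533 and 1337 CPM in ML-792, and 1487, 1388 and 1381 CPM in DMSO. Every library with DNR was above every library without it, and the log2 fold changes were 0.32 ± 0.08 in ML-792+DNR vs DMSO (adjusted p = 0.00847), 0.29 ± 0.08 in DNR vs DMSO (adjusted p = 0.0163) and 0.29 ± 0.08 in ML-792+DNR vs ML-792 (adjusted p = 0.0131). GAPDH had 7266, 5873 and 5944 CPM in ML-792+DNR, 6465, 5561 and 5694 CPM in DNR, 5527, 5311 and 4932 CPM in ML-792, and 5688, 4952 and 5350 CPM in DMSO. Replicate 1 was the highest in each group, DNR and DMSO overlapped, and ML-792+DNR lay above DMSO. The log2 fold change of GAPDH was 0.26 ± 0.11 in ML-792+DNR vs DMSO (adjusted p = 0.0754, with the replicate block 0.25 and 0.00794) and 0.15 ± 0.11 in DNR vs DMSO (adjusted p = 0.32).

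PGAM1 averaged 107 ± 10.9 CPM in ML-792+DNR, 84.6 ± 9.41 CPM in DNR, 78.4 ± 25.4 CPM in ML-792 and 72.1 ± 12.6 CPM in DMSO. It rose in ML-792+DNR over DMSO (0.56 ± 0.19, adjusted p = 0.0303), though not past the test without DMSO replicate 1 or 3 or ML-792+DNR replicate 2 or 3 (adjusted p up to 0.12). Its near copy PGAM4 rose as well in that comparison (1.81 ± 0.57, adjusted p = 0.0251), and reads of these copies cannot be told apart with certainty. LDHA averaged 2090 ± 229 CPM in ML-792+DNR, 1930 ± 119 CPM in DNR, 1888 ± 216 CPM in ML-792 and 1776 ± 79.8 CPM in DMSO, and LDHB 1676 ± 113, 1611 ± 103, 1648 ± 151 and 1556 ± 68.2 CPM in these groups. The change of LDHA, whose promoter is printed above with 6 matches, was 0.12 ± 0.10 in DNR vs DMSO (adjusted p = 0.419) and 0.23 ± 0.10 in ML-792+DNR vs DMSO (adjusted p = 0.0927, with the replicate block 0.00622). PGK1 (phosphoglycerate kinase 1) reached the threshold only with the block in ML-792+DNR vs DMSO (0.14, adjusted p = 0.0432), and ENO1, ENO2 and LDHB passed it in no comparison, with or without the block. Per length the ratio of LDHA to LDHB was 0.724 ± 0.0404 in ML-792+DNR, 0.698 ± 0.0438 in DNR, 0.665 ± 0.0182 in ML-792 and 0.664 ± 0.00622 in DMSO. The same-strand overlap at LDHB makes the size of this ratio uncertain.

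Regulators of flux changed little. PDK1, a kinase that inactivates pyruvate dehydrogenase, had 31.4, 34.7 and 35.7 CPM in ML-792+DNR, 30.8, 32.7 and 33.6 CPM in DNR, 43.0, 41.5 and 39.7 CPM in ML-792, and 36.6, 34.8 and 38.7 CPM in DMSO. Its highest group was ML-792, all of whose libraries lay above the other 9. PDK1 fell in ML-792+DNR vs ML-792 (−0.29 ± 0.08, adjusted p = 0.0169), though not past the test without replicate 1 of either group (adjusted p up to 0.0713), and the changes in DNR vs DMSO (−0.18 ± 0.08, adjusted p = 0.119) and in ML-792 vs DMSO (0.17 ± 0.08, adjusted p = 0.978) did not pass. PFKFB4, an enzyme that helps to set the level of the phosphofructokinase activator fructose 2,6-bisphosphate, had 2.71, 2.78 and 3.34 CPM in ML-792+DNR, 2.104, 2.512 and 2.713 CPM in DNR, 2.55, 2.69 and 3.38 CPM in ML-792, and 2.76, 2.60 and 3.16 CPM in DMSO. These ranges overlapped except that ML-792+DNR lay just above DNR (0.27 ± 0.18, adjusted p = 0.578). Its relative PFKFB3 averaged 33.8, 36.3, 39.4 and 38.9 CPM over ML-792+DNR, DNR, ML-792 and DMSO, and fell past the test only with the replicate block, in ML-792+DNR vs DMSO (−0.21, adjusted p = 0.0173) and vs ML-792 (−0.22, adjusted p = 0.0125). PDK3 passed the test nowhere.

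Among the oxygen-sensing genes EGLN1 was the one that DNR lowered. EGLN1, the main HIF prolyl hydroxylase, had 56.4, 62.1 and 58.0 CPM in ML-792+DNR, 52.8, 55.5 and 55.3 CPM in DNR, 76.7, 73.1 and 69.0 CPM in ML-792, and 77.6, 69.9 and 72.7 CPM in DMSO. All 6 libraries with DNR lay below all 6 without it. The log2 fold change was −0.32 ± 0.07 in ML-792+DNR vs DMSO (adjusted p = 0.00491), −0.43 ± 0.07 in DNR vs DMSO (adjusted p = 0.000789) and −0.31 ± 0.07 in ML-792+DNR vs ML-792 (adjusted p = 0.00628), and the DNR vs DMSO value stayed past the test in all 21 alternatives. An unnamed locus on the same strand overlaps 69.3% of its canonical exon bases. VHL had 112, 131 and 110 CPM in ML-792+DNR, 110, 117 and 122 CPM in DNR, 137, 129 and 144 CPM in ML-792, and 131, 128 and 131 CPM in DMSO. DNR libraries of VHL lay below those of DMSO, but the change of −0.16 ± 0.08 did not pass (adjusted p = 0.137), and in ML-792+DNR vs ML-792 it was −0.21 with an adjusted p of 0.0519, and of 0.0321 with the replicate block.

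HIF1A had 31.5 to 32.0 CPM in ML-792+DNR, 37.0 to 37.9 CPM in DNR, 33.8 to 34.8 CPM in ML-792 and 35.6 to 39.1 CPM in DMSO. Libraries of DNR and DMSO overlapped (−0.00 ± 0.07, adjusted p = 0.973). HIF1A fell by 0.24 ± 0.07 on the log2 scale in ML-792+DNR vs DMSO (adjusted p = 0.019), though not past the test without DMSO replicate 1 or 3 or ML-792+DNR replicate 3. The ML-792+DNR libraries lay below those of DNR without overlap (−0.24 ± 0.07, adjusted p = 0.173, under DESeq2 past the test). HIF-1 is governed mainly through the stability of the protein, which was not measured here.

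Of the 7 hypoxia-induced genes DNR alone raised ADM, P4HA1 and VEGFA past the test, where 14.3% of all genes rose past it. ADM (chr11:10326620-10328944, plus strand) encodes a peptide that widens blood vessels. It had 1.90, 1.08 and 1.34 CPM in ML-792+DNR (58, 45 and 39 reads), 1.67, 1.02 and 1.34 CPM in DNR (58, 33 and 43 reads), 0.184, 0.298 and 0.147 CPM in ML-792 (7, 10 and 5 reads), and 0.130, 0.217 and 0.153 CPM in DMSO (6, 7 and 6 reads). The lowest library with DNR was above the highest without it by more than 3-fold, and the counts without DNR are small. ADM rose 8.63-fold in ML-792+DNR vs DMSO (3.11 ± 0.36, adjusted p = 4.36e-05), 8.14-fold in DNR vs DMSO (3.02 ± 0.36, adjusted p = 4.73e-05) and 6.75-fold in ML-792+DNR vs ML-792 (2.75 ± 0.35, adjusted p = 0.000105). Between ML-792+DNR and DNR it differed by 0.09 ± 0.28 (adjusted p = 0.933). These calls held in each of the 20 alternatives that tested ADM, and 1 more, a mean of at least 1 CPM, left the gene out.

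ANKRD37 (chr4:186317175-186321782, plus strand) was higher in ML-792+DNR than in any other group. It had 1.96, 2.21 and 1.79 CPM in ML-792+DNR (60, 92 and 52 reads), 0.951, 0.744 and 1.03 CPM in DNR (33, 24 and 33 reads), 0.762, 1.22 and 0.735 CPM in ML-792 (29, 41 and 25 reads), and 0.669, 0.526 and 0.688 CPM in DMSO (31, 17 and 27 reads). No library of ML-792+DNR overlapped any other group, while DNR and ML-792 overlapped each other and each lay above DMSO. ANKRD37 rose in ML-792+DNR over DMSO (1.65 ± 0.25, adjusted p = 0.000293) and over ML-792 (1.14 ± 0.24, adjusted p = 0.00315). The difference from DNR, 1.13 ± 0.24, had an adjusted p of 0.0502, just short of the threshold. It passed with the replicate block (1.12, adjusted p = 0.0211), under DESeq2 (adjusted p = 0.00986), under limma voom (adjusted p = 0.0438) and without ML-792 replicate 2 (adjusted p = 0.0472), and over all alternatives the adjusted p ranged from 0.00986 to 0.392. DNR vs DMSO gave 0.52 ± 0.26 (adjusted p = 0.152), ML-792 vs DMSO 0.51 ± 0.26 (adjusted p = 1.00), and the interaction 0.61 ± 0.36 (adjusted p = 0.999), so that a larger effect of DNR in the presence of ML-792 was not shown. On the opposite strand UFSP2 overlaps 54.7% of the exon bases of ANKRD37, and whether the counting used strand is not stated in the sources read. UFSP2 averaged 21.4 CPM in ML-792+DNR, 19.9 CPM in DNR, 20.4 CPM in ML-792 and 19.0 CPM in DMSO and passed the test in no comparison.

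P4HA1, a prolyl hydroxylase that acts on collagen, had 73.7, 64.8 and 70.5 CPM in ML-792+DNR, 78.9, 78.6 and 82.4 CPM in DNR, 64.8, 61.6 and 58.8 CPM in ML-792, and 64.4, 58.4 and 61.7 CPM in DMSO. DNR stood above every other group without overlap. P4HA1 rose in DNR vs DMSO (0.38 ± 0.08, adjusted p = 0.00203), and the lower level in ML-792+DNR than in DNR (−0.20 ± 0.08) did not pass the test (adjusted p = 0.268). VEGFA, the growth factor of blood vessels, had 59.4 to 88.1 CPM in ML-792+DNR, 69.8 to 98.8 CPM in DNR, 45.5 to 60.0 CPM in ML-792 and 48.9 to 62.7 CPM in DMSO. VEGFA rose in DNR vs DMSO (0.58 ± 0.16, adjusted p = 0.0151) and in ML-792+DNR vs ML-792 (0.52 ± 0.16, adjusted p = 0.0252). The first was lost without DMSO replicate 2 or DNR replicate 1 or 3 (adjusted p up to 0.069) and with replicates 2 and 3 only. The second was lost without ML-792 replicate 1 or 2 or ML-792+DNR replicate 1 or 3, and with replicates 2 and 3 only. Against DMSO, ML-792+DNR missed the threshold at 0.41 ± 0.16 (adjusted p = 0.0602, with the replicate block 0.00027).

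NDRG1 (chr8:134249418-134314265, minus strand), which hypoxia and several stresses induce, was higher with ML-792 than without it, in the presence and in the absence of DNR. It had 23.2 to 25.4 CPM in ML-792+DNR, 17.7 to 19.1 CPM in DNR, 19.8 to 25.5 CPM in ML-792 and 13.7 to 17.0 CPM in DMSO. NDRG1 rose in ML-792+DNR vs DMSO (0.72 ± 0.12, adjusted p = 0.000497), in all 21 alternatives. With DNR alone it lay above DMSO without overlap, but did not pass the test. It passed there with the replicate block, without DMSO replicate 2 and without ML-792 replicate 2. Its level was higher in ML-792 than in DMSO (0.56 ± 0.12, adjusted p = 0.0793) and in ML-792+DNR than in DNR (0.42 ± 0.12, adjusted p = 0.125) without overlap, and both differences passed with the replicate block (adjusted p = 0.0105 and 0.0212). BNIP3 and BNIP3L, which mark mitochondria for removal, passed the test in no comparison. BNIP3 averaged 24.4 CPM in ML-792+DNR, 20.1 CPM in DNR, 23.6 CPM in ML-792 and 21.2 CPM in DMSO, and BNIP3L 14.0, 14.0, 12.2 and 12.5 CPM in these groups.

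**Figure D4:**
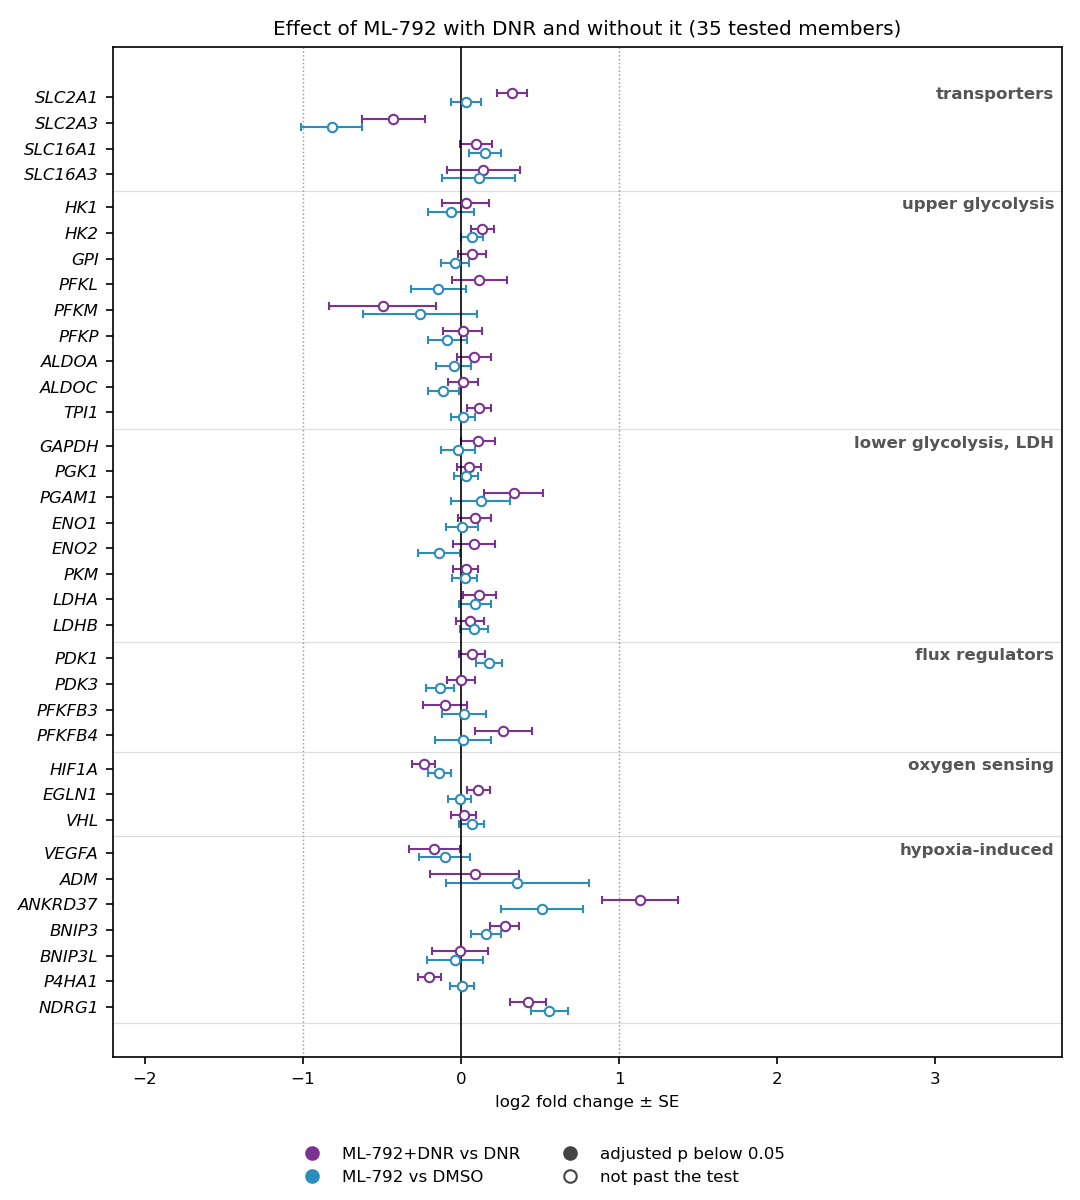
Log2 fold change with ML-792 (horizontal axis, ± SE) of the 35 tested members, in the presence of DNR (ML-792+DNR vs DNR, purple) and without it (ML-792 vs DMSO, blue), with dotted lines at 2-fold. All points are open, since no member passed the test, and ANKRD37 at 1.13 in the presence of DNR is the only point beyond 2-fold.

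Further genes of these pathways were taken from lists of their own, whose counts in DNR vs DMSO stand beside 14.3% of all genes upward and 15.7% downward. Of 20 tested other genes of glycolysis and pyruvate use, 3 rose and 2 fell in DNR vs DMSO, with a median log2 fold change of 0.09. ENO3, the muscle enolase, averaged 6.74 CPM in ML-792+DNR, 9.09 CPM in DNR, 1.87 CPM in ML-792 and 2.07 CPM in DMSO and rose with DNR (2.13 ± 0.34, adjusted p = 0.000405). PDP2, a phosphatase that activates pyruvate dehydrogenase, averaged 23.0 CPM in ML-792+DNR, 18.6 CPM in DNR, 43.5 CPM in ML-792 and 41.2 CPM in DMSO and fell with DNR (−1.15 ± 0.17, adjusted p = 0.000262). Of 9 other genes of the HIF pathway only EPAS1, which encodes HIF-2 alpha, passed in DNR vs DMSO (2.41 ± 0.48, adjusted p = 0.00219), at 0.575 CPM in ML-792+DNR, 0.731 CPM in DNR, 0.118 CPM in ML-792 and 0.133 CPM in DMSO.

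Of 26 other hypoxia-induced genes 5 rose and 4 fell in DNR vs DMSO (median 0.03), so that movement in both directions was seen there too. MAFF (1.83 ± 0.14, adjusted p = 9.94e-07), a small transcription factor, CXCR4 (1.58 ± 0.12, adjusted p = 9.94e-07), a chemokine receptor, and PPFIA4 (1.46 ± 0.43, adjusted p = 0.0204) rose at least 2-fold, and the repressor BHLHE40 fell (−2.46 ± 0.24, adjusted p = 7.98e-06). CXCR4 averaged 208 CPM in ML-792+DNR, 196 CPM in DNR, 63.3 CPM in ML-792 and 65.7 CPM in DMSO. BHLHE40 averaged 3.66 CPM in ML-792+DNR, 3.05 CPM in DNR, 8.57 CPM in ML-792 and 16.8 CPM in DMSO. Between ML-792+DNR and DNR the only gene past the test in any of these lists was DDIT4, an inhibitor of mTOR signalling, which fell by 0.68 ± 0.14 on the log2 scale (adjusted p = 0.0394). DDIT4 averaged 25.2 CPM in ML-792+DNR, 40.4 CPM in DNR, 38.3 CPM in ML-792 and 58.2 CPM in DMSO, so that its mean was lower with ML-792 in cells without DNR too. No gene of its list passed in 9 of the 12 fits that left out a library. In DNR vs DMSO, 5 of 16 TCA cycle genes rose (IDH3B, DLST, SUCLG1, SDHD and FH) and 0 fell (2 past the test without DNR replicate 1). Of all genes 14.3% rose and 15.7% fell past the test. In either direction the share was 31.2% of the list, against 30.0% of all genes, and the direction of the list was not tested. All 16 TCA cycle values were positive in that comparison (median 0.21), against 7008 of the 13696 genes.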

How the data were processed

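Polyadenylated RNA of 12 HL-60 libraries (4 groups, 3 replicates each) was sequenced with a stranded kit. The authors aligned the reads with TopHat2 2.1.1 and Bowtie2 2.3.5.1 (genome build hg19, that is GRCh37) and assigned them to genes in HTSeq 0.11.1, whose raw counts are the deposited table. Cufflinks 2.2.1, Picard and DESeq2 are further tools in the submitters' processing notes. A deposited table of normalized signal and one of the authors' comparisons (fold changes and p-values) were not used. The 5 HTSeq counter lines were left out, and reads in genes made up 65.3% to 67.4% of the records.

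Counts were fitted with edgeR 4.0.16 (R 4.3.3, TMM factors, filterByExpr by group with a minimum count of 10 and a minimum total of 15, quasi-likelihood test, group term, all 12 libraries), with Benjamini-Hochberg adjustment over all genes tested. CPM use TMM-scaled library sizes, and floors (3 counts a library) cover counting error only. The p-values measure the spread between the independent experiments. With 3 libraries a side, the smallest p of an exact permutation test is 0.1, so none was run. Coordinates come from GENCODE on GRCh37. Promoters come from RefSeq.

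Replicate numbers were checked as pairing by correlating deviations from group means. Same-numbered libraries correlated at over 0.1 in all pairs of each comparison (r of 0.124 to 0.587) except DNR vs DMSO (lowest r = 0.0852). For DNR vs DMSO, values of single genes with a replicate block are therefore not given, and only counts with the block are. The other same-numbered pairs of that comparison correlated at 0.249 and 0.336, and differently numbered libraries at 0.00401 at most. The fit by group may thus leave out some pairing there. Values per library were given for members called in any comparison and, in each role, for the 2 members with the smallest adjusted p in DNR vs DMSO, and up to 4 called genes were named from each other list. Single genes of the pentose phosphate pathway are not reported here. NDRG1 and SLC2A1 were added to the plot of members by library after their values were seen. Members and lists were chosen with earlier results of these data known. The alternatives tried were a replicate block, leaving out each library, replicates 2 and 3 only, the groups compared only, DESeq2 1.42.0, limma voom (limma 3.58.1), scaling by size factors from median ratios or by library size alone, keeping all genes, and keeping genes with a mean of 1 CPM or more.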

Additional observations from a re-analysis of the deposited data

How the results depend on the processing

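No member result changed sign between the main fit and an alternative where either of them was past the test. Sign changes of results past the test in neither fit were not counted. In DNR vs DMSO, members past the test numbered 5 to 12 with each library left out (5 without DNR replicate 1) and called members 1 to 3 (1 without DMSO replicate 2 or DNR replicate 1), and replicates 2 and 3 alone gave 5 and 1. The replicate block gave 14, gaining NDRG1 and SLC16A1, where 42.1% of all genes were past the test. Same-numbered DNR and DMSO libraries correlated at r of 0.0852 to 0.336, and differently numbered ones at 0.00401 at most. In ML-792 vs DMSO there were 0 to 1 past with a library left out and 2 under DESeq2, with no count filter and with the replicate block, and called members stayed at 0. In ML-792+DNR vs DMSO there were 9 to 16 past and 3 to 4 called with a library left out, and 6 past with replicates 2 and 3 only. In ML-792+DNR vs DNR there were 0 to 1 past and 0 to 1 called with a library left out. Past the test were 3 under DESeq2, 2 with the replicate block, and 1 with limma voom, with a mean of at least 1 CPM or with no count filter, and each of these 5 settings called 1. In ML-792+DNR vs ML-792 there were 6 to 16 past and 2 to 3 called with a library left out, 2 past and 1 called with replicates 2 and 3 only, and 21 past with the replicate block. The interaction stayed at 0 members with and without the block, which brought 1 of all genes past the test.

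The alternatives of the other lists were chosen after seeing the data. In DNR vs DMSO, leaving out a library gave 4 to 5 past the test among other glycolysis genes, 1 to 2 in the HIF pathway, 7 to 10 among other hypoxia-induced genes, 0 to 3 in the pentose phosphate pathway and 2 to 7 in the TCA cycle. With the replicate block there were 8, 5 and 9 in other glycolysis genes, the HIF pathway and the TCA cycle, where 42.1% of all genes were past the test. With replicates 2 and 3 only there were 3, 2, 0 and 0 in other glycolysis genes, the HIF pathway, the pentose phosphate pathway and the TCA cycle. The HIF pathway also had 2 under DESeq2 and with no count filter, 3 with the groups of the comparison only, and 0 with a mean of at least 1 CPM, which drops EPAS1. In ML-792+DNR vs DNR, other glycolysis genes had 1 under DESeq2 and with the replicate block and stayed at 0 with a library left out, as did the HIF pathway, pentose phosphate and TCA lists. Other hypoxia-induced genes had 0 to 1 with a library left out, 2 under DESeq2 and with no count filter, 3 with the replicate block, and 0 with library size only, replicates 2 and 3 only or the groups of the comparison only. The cause of these shifts was not tested, apart from the smaller number of libraries in some. Counts were low for ADM, ANKRD37, PFKM, EPAS1, PPFIA4 and PGAM4, which limits the precision of their values.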
